A study of Mus musculus with 7 samples.

Results

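Elavl1 is the gene for HuR, an RNA-binding protein, and the sites described here are places assigned to that gene in HuR immunoprecipitations. They were chosen by name: every site whose gene name is Elavl1 in the list of each HuR immunoprecipitation, which gave 3 of 18072 sites, 1 in each list, and 2 of 15392 sites in the joined list. For the joined list only this count is given here. The cells were CT26.WT, a mouse colon cancer line labelled wild type and given no treatment, grown in serum-containing medium. The series holds 7 samples from these cells: 3 immunoprecipitations with an antibody to endogenous HuR, 3 with IgG as the control antibody, and 1 sample of input RNA that the series describes as split into portions. The 3 HuR samples are used here, as called sites. The IgG and input samples were not analysed here, and read depth is unknown. Which library the site caller took as control is not stated, so it is unknown whether the values below compare HuR with IgG. The labels do not say whether the immunoprecipitations came from separate cultures.

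HuR binds U-rich and AU-rich stretches of mRNA, most often in introns of pre-mRNA and in 3′ untranslated regions, and is known for protecting bound mRNAs from decay. It also acts on its own transcript: HuR has been reported to bind near the polyadenylation sites of its mRNA, where the choice of site sets how long the 3′ untranslated region is and how stable the mRNA is. In the intestinal epithelium HuR is known for its part in renewal of the mucosa and in colon tumours. The question for Elavl1 here is where along the gene sites were called, how high they stood in their lists and whether the immunoprecipitations found the same place.

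Elavl1 had a single site in every list. Immunoprecipitation 1 had a site of 528 bases at chr8:4374886-4375413 on mm39, with a fold enrichment of 9.63. The fold is the caller's enrichment ratio for the site, and how its denominator was formed is not stated in the sources used here. Immunoprecipitation 2 had a site of 104 bases at chr8:4354927-4355030, with a fold of 5.16. Immunoprecipitation 3 had a site with exactly the same start and end as that of immunoprecipitation 2, with a fold of 10.87. Elavl1 was thus listed in all 3 immunoprecipitations, at a place common to 2 of them and at another place in the first. The files assign all 3 sites to the transcript ENSMUST00000098950. All folds, scores and false discovery rates are the authors' values for 1 site in 1 library and carry no replicate error.

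**Figure D1:**
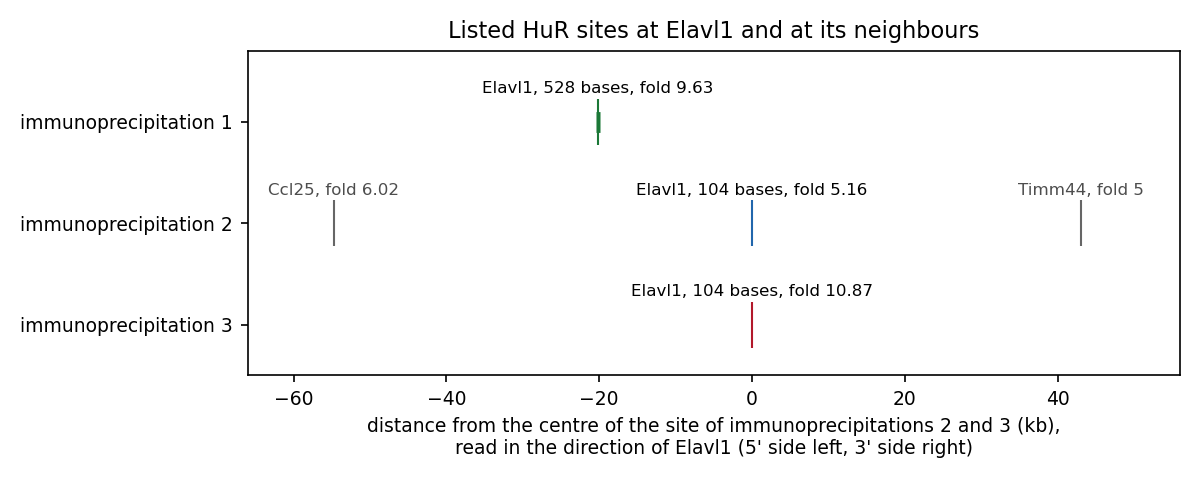
Position of the listed sites at Elavl1 and, where immunoprecipitation 2 had them, at the neighbouring genes Timm44 and Ccl25; the x axis is the distance in kilobases from the centre of the site of immunoprecipitations 2 and 3, read in the direction of Elavl1, and vertical ticks mark sites too short to see at this scale. The site of immunoprecipitation 1 lies on the 5′ side of the place common to immunoprecipitations 2 and 3.

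The places were far apart along the gene. Between the site of immunoprecipitation 1 and the place common to immunoprecipitations 2 and 3 lay 19855 bases, which is 49.2% of the 40360 bases that the RefSeq table of the GRCm38 assembly gives as the length of Elavl1. In that table the gene is on the minus strand, so the site of immunoprecipitation 1, at the higher coordinates, is the one nearer the 5′ end. No listed Elavl1 site lay on the 3′ side of the 104-base place: the count was 0 in the 3 lists. That follows from the positions above and does not show that no call was made there. Gene and exon bounds on mm39 were not used here, so it is not known whether either place is exonic, intronic or in an untranslated region, and none of the sites can be set against the polyadenylation sites.

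Elavl1 lies between Timm44, which encodes a subunit of the mitochondrial protein import motor, and Ccl25, which encodes a chemokine of the small intestine and thymus. In the RefSeq table Elavl1 and Ccl25 run head to head on opposite strands, with 110 bases between their starts. Whether the site calling kept the strand of the reads is not stated in the sources used here, so at the 5′ end of Elavl1 reads of the pair of genes might not be told apart. In immunoprecipitation 1, the one with the site nearer the 5′ end, no site was listed for Ccl25. The next listed site at higher coordinates was in Zfp958, a zinc finger gene, 287753 bases away. With the strand unknown and 2 calls unlisted on that side, this does not show which gene the reads came from. In immunoprecipitation 2 both neighbours had a site of their own, Timm44 with a fold of 5.0 at 42929 bases from the Elavl1 site and Ccl25 with a fold of 6.02 at 54451 bases. In immunoprecipitation 3 neither neighbour had a listed site.

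The lists hold a part of all calls, and the site numbers show how many calls near Elavl1 are not listed. These numbers rise with genome position throughout each list, so a jump between listed neighbours counts the calls left out between them. The listed sites were 13.4% of the highest number in list 1, 14.5% in list 2 and 20.0% in list 3. In immunoprecipitation 2 there were 3 unlisted calls between the sites of Timm44 and Elavl1 and 3 more between those of Elavl1 and Ccl25. In immunoprecipitation 1 there were 2 unlisted calls between the Elavl1 site and that of Zfp958, and 15 on the side of lower coordinates before the next listed gene, Trappc5, which encodes a subunit of a vesicle tethering complex, 644210 bases away. In immunoprecipitation 3 the counts were 27 toward lower coordinates, over 859859 bases, and 19 toward higher coordinates, over 4361382 bases. Some of these calls could lie in Elavl1 itself, so 1 site per list is the number listed, and the number called is unknown.

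By fold, the Elavl1 sites stood above the median of their list in immunoprecipitations 1 and 3 and below it in immunoprecipitation 2. In list 1 the fold of 9.63 was above that of 80.5% of the 4722 sites, whose median was 7.21. In list 2 the fold of 5.16 was above that of 26.7% of 5384 sites, with a median of 6.41. In list 3 the fold of 10.87 was above that of 80.5% of 7966 sites, with a median of 8.38. The place common to immunoprecipitations 2 and 3 thus carried a fold below the list's median in the former and above it in the latter. When each gene was taken by its best site, Elavl1 stood above 75.3% of 3423 genes in list 1, 21.8% of 3625 in list 2 and 69.3% of 3942 in list 3.

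By score all 3 Elavl1 sites stood above the median of their list. The score is a p on a log scale (log10 of p times -10), and a score of 50, the lowest listed, corresponds to a p of 1e-05. The site of immunoprecipitation 1 scored 122.64, a caller p of 5.4e-13, above 73.2% of its list. The site of immunoprecipitation 2 scored 119.16, a caller p of 1.2e-12, above 78.1% of its list. The site of immunoprecipitation 3 scored 178.52, a caller p of 1.4e-18, above 89.4% of its list. They also passed 70, the stricter limit tried, which 67.4%, 62.6% and 65.6% of the sites in lists 1, 2 and 3 reached.

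The site of immunoprecipitation 2 is the one where fold and score stood apart. Among the 555 sites of its list with a score within 10% of its own, the median fold was 7.47, and 16.8% had a fold lower than that of Elavl1. In immunoprecipitations 1 and 3 the same comparison put the Elavl1 fold above that of 65.9% of 519 sites and 60.7% of 433 sites. Folds were also not unique to a site. The value 5.16 recurred at 9 sites of list 2, Elavl1 included. Their scores ran from 50.76 at Trim30d, a Trim30 family gene, to 165.6 at Septin2, a septin cytoskeleton gene. The value 9.63 was found at 3 sites of list 1 and 10.87 at 6 sites of list 3. How many reads lie behind each of these folds is unknown.

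**Figure D2:**
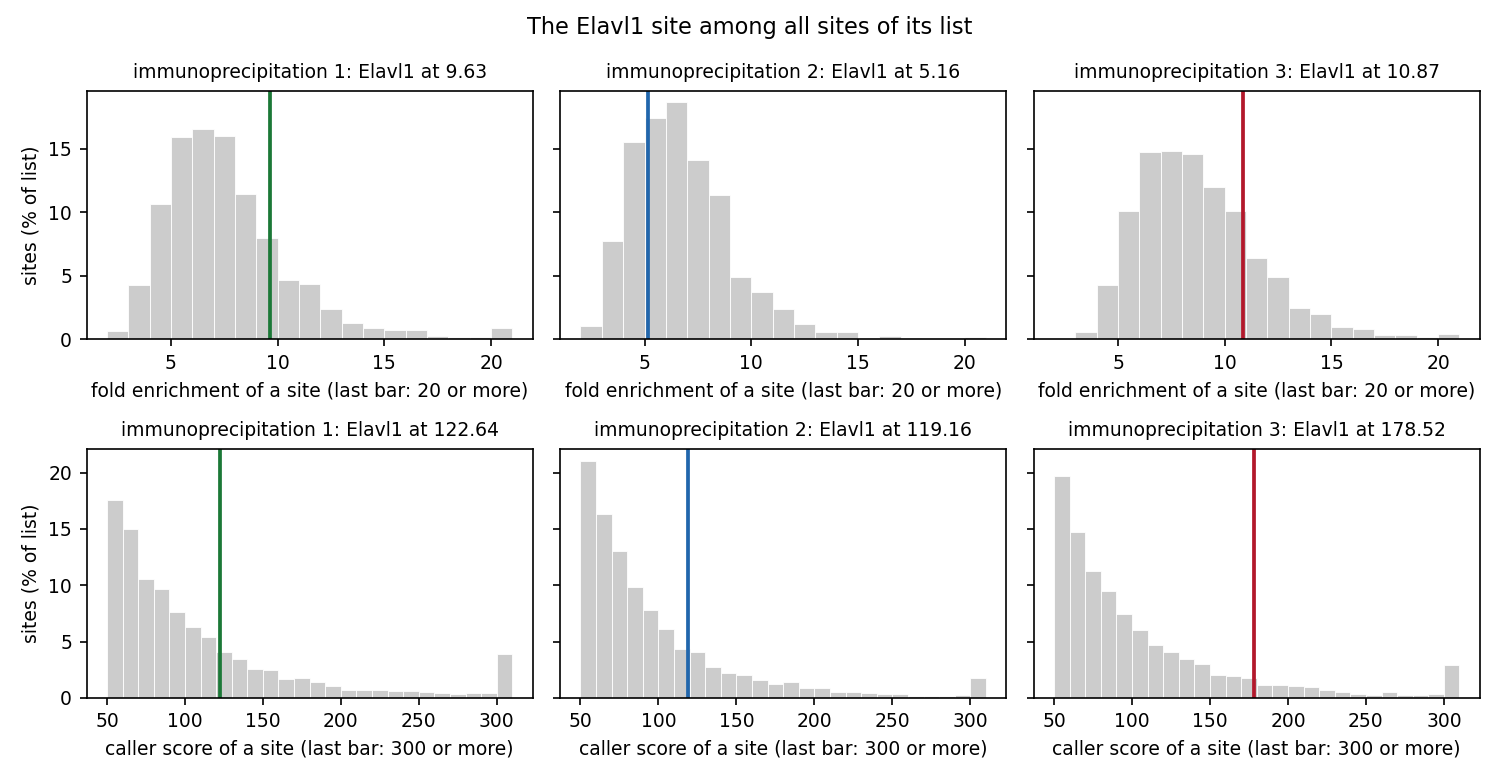
Fold enrichment (top) and caller score (bottom) of all sites in the list of each immunoprecipitation, as the percent of sites in each bin, with a vertical line at the Elavl1 site; the last bar collects all higher values. The line for fold is left of the tallest bar in immunoprecipitation 2, at 5.16, and right of it in the others, while all score lines are right of the tallest bar.

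The caller's false discovery rate, read as percent, was 14.88% at the Elavl1 site of list 1, 12.65% in list 2 and 10.3% in list 3. These rates were lower than at most sites of lists 1 and 2, where 27.7% and 19.3% of sites had a lower one. In list 3 the order was turned: 87.5% of its sites had a lower rate than Elavl1, although 89.4% had a lower score. In list 3, 77.2% of all sites had a rate under 10%, and that of Elavl1 did not. Lists 1 and 2 held 0 sites with a rate under 10%.

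The sites also differed in length. At 528 bases the site of immunoprecipitation 1 was longer than 84.8% of its list. At 104 bases the common place was shorter than most sites, with 20.6% of list 2 and 18.9% of list 3 shorter still. Sites of exactly 104 bases numbered 33 in list 2 and 54 in list 3.

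The recurrence of the Elavl1 place was next read against that of all sites. Of the sites in list 2, 35.4% overlapped a site of another list by at least 1 base, and the share was 23.4% in list 3 and 29.8% in list 1. The Elavl1 sites of lists 2 and 3 belonged to these and that of list 1 did not. Sites with the same start and end in lists 2 and 3 numbered 1037, which is 19.3% of list 2 and 13.0% of list 3, so an exact match as at Elavl1 was a common form of recurrence. Among these 1037 places the Elavl1 fold was above 35.2% in immunoprecipitation 2 and above 76.7% in immunoprecipitation 3, and its score was above 81.6% and 87.4%. Matching bounds did not mean matching scores. Zfp36l2, which encodes an RNA-binding protein that promotes decay of AU-rich mRNAs, had the same 3226 bases listed in all 3 immunoprecipitations (chr17:84491359-84494584). Its scores there were 1515.08, 131.27 and 107.67, while its folds were 9.19, 5.93 and 9.97. Scores of different lists can differ with read depth, which is unknown, so they do not compare binding strength. What sets the bounds is not stated in the sources used here.

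A site in every list was itself not rare. Of 6277 genes with a site in any list, 19.9% had one in all 3, as Elavl1 did. With scores of at least 70 the share was 11.5% of 5206 genes, Elavl1 still among them. A single site was the usual finding for a gene, for 71.8% of genes in list 1, 67.3% in list 2 and 53.2% in list 3. Among the 1248 genes in every list, 204 (16.3%) had exactly 1 site in each, Elavl1 among them.

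The way in which the Elavl1 sites fell, with lists 2 and 3 together and list 1 apart, was seen in 232 of the 1248 genes in every list (18.6%) and in 33 of the 204 with 1 site in each (16.2%). In 21 of these 33, which is 10.3% of the 204, the sites of lists 2 and 3 had the same start and end. Over these 21 genes the distance from that place to the site of list 1 ran from 885 to 54947 bases, with a median of 8872. At 19855 bases the Elavl1 distance was exceeded in 3 of them. No overlap at all was found in 77 of the 204 genes (37.7%), and lists 1 and 2 only or lists 1 and 3 only shared a place in 34 and 28.

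**Figure D3:**
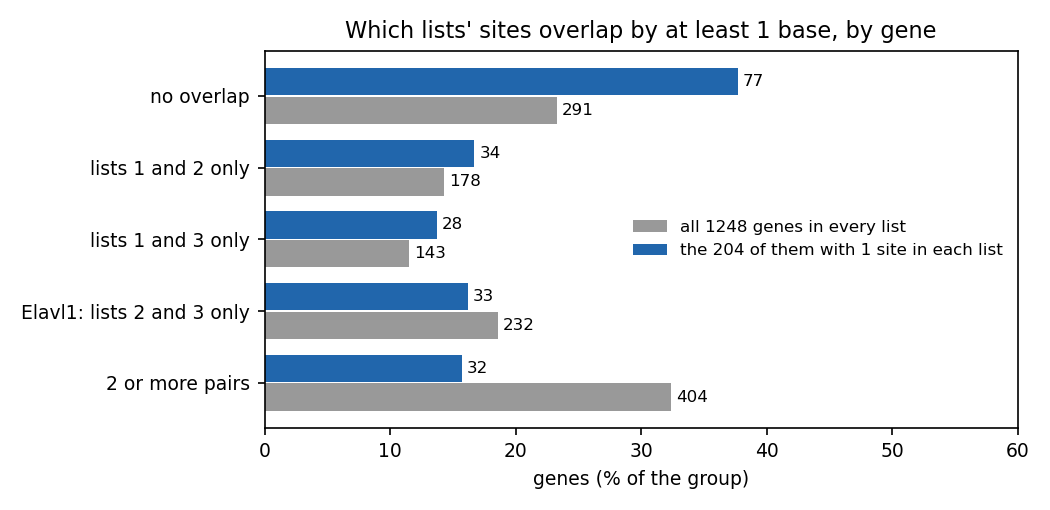
Genes with a site in every list by which lists' sites overlap by at least 1 base, as percent of all 1248 such genes (grey) and of the 204 with 1 site in each list (blue), with the number of genes beside each bar. Elavl1 belongs to the class with overlap between lists 2 and 3 only, which holds 232 and 33 genes.

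Elavl1 was the 1 of 4 ELAV family members listed, beside 28.4% of the 21900 protein-coding genes in the RefSeq table with a site in any list. The other ELAV family genes, Elavl2, Elavl3 and Elavl4, which encode the neuronal Hu proteins, had no listed site in any of the 3 lists. Whether the cells express the others was not measured here, since lists of sites do not give expression levels. Site lists bear on the cell line in the same limited way, and the same 28.4% stands beside the marker counts. Of 4 epithelial markers Krt18 alone had a site, in list 2, and Epcam, Krt8 and Cdh1 had none. Of 3 mesenchymal markers Zeb1 had sites in lists 2 and 3, Cdh2 in lists 1 and 3, and Vim had none. Of 4 markers of other cell types Alb and Hbb-bs, genes of liver and red blood cells, each had a site in list 2 alone, and Ptprc and Pecam1 had none. The folds of Alb and Hbb-bs in list 2 were 16.02 and 15.46, with scores of 205.7 and 521.62. Both stood above the Elavl1 site of that list, which had a fold of 5.16 and a score of 119.16.

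Elavl1 was then set beside genes for proteins known to bind, carry or modify HuR. Of 16 such genes 13 had a site, beside 28.4% of the 21900 protein-coding genes in the RefSeq table, a background that also holds genes the cells may not express. A site in all lists was found for 2 of the 13 (15.4%, beside 19.9% of all genes with a site). Tnpo1, which encodes a transportin that carries HuR into the nucleus, had best folds of 11.32, 6.11 and 9.8 in lists 1, 2 and 3, and its sites of lists 1 and 2 coincided, where Elavl1 had lists 2 and 3 together. Prkca, which encodes a protein kinase C that phosphorylates HuR, had 8.47, 4.14 and 18.42. The nuclear exporter gene Xpo1 had its best fold, 24.5, in list 3 alone. Mapk14, the p38 kinase gene, had 9.11 and 15.0 in lists 2 and 3, and Carm1, the arginine methyltransferase gene, 10.05 and 11.98. The HuR ligand genes Anp32b and Anp32a were listed in immunoprecipitation 1 alone, with 10.03 and 8.36.

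Genes for other proteins on AU-rich or related mRNA elements had 12 of 18 members with a site, beside the same 28.4%, and 5 in all lists (41.7% of the 12, beside 19.9% of all genes with a site), among them Zfp36l2, Pum2, Msi2 and Igf2bp2. Zfp36l2 had best folds of 9.19, 5.93 and 9.97. Msi2, a translational regulator gene, had overlap between lists 2 and 3 only, as Elavl1 did. Its best folds were 5.35, 7.64 and 11.79. Unlike at Elavl1, those of lists 2 and 3 lay at different places (chr11:88285391-88285505 and chr11:88480881-88480973). Pum2, a Pumilio gene whose protein represses mRNAs through their 3′ untranslated regions, had 3.64, 6.61 and 7.85 with no overlap between lists. Igf2bp2, an mRNA-stabilising factor, had 6.43, 10.41 and 10.44, likewise with no overlap. Outside these, Msi1 had 16.99 in list 1, Hnrnpd (the AUF1 gene) 9.11 and 4.76 in lists 1 and 2, Celf1 5.61 and 8.87 in lists 2 and 3, Igf2bp1 5.53 and 8.83 in lists 1 and 2, and Zfp36l1 6.89 and 5.84 in lists 1 and 2.

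Cleavage and polyadenylation factors act at the place where HuR is reported to act on its own transcript. Of their 17 genes 14 had a site, again beside 28.4%, and 2 had one in all lists (14.3% of the 14, beside 19.9%). Nudt21, which encodes a subunit of cleavage factor I that steers the choice of polyadenylation site, had best folds of 5.52, 3.67 and 6.39, and Papola, the poly(A) polymerase gene, had 6.25, 4.84 and 14.02. Cpsf3, the endonuclease gene, reached 6.44 and 17.76 and Fip1l1 reached 15.39 and 6.6 in lists 1 and 3. Cpsf6 and Pcf11 had sites in list 3 alone, with 12.96 and 11.25, and Wdr33 had 5.11 and 12.63 in lists 2 and 3.

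**Figure D4:**
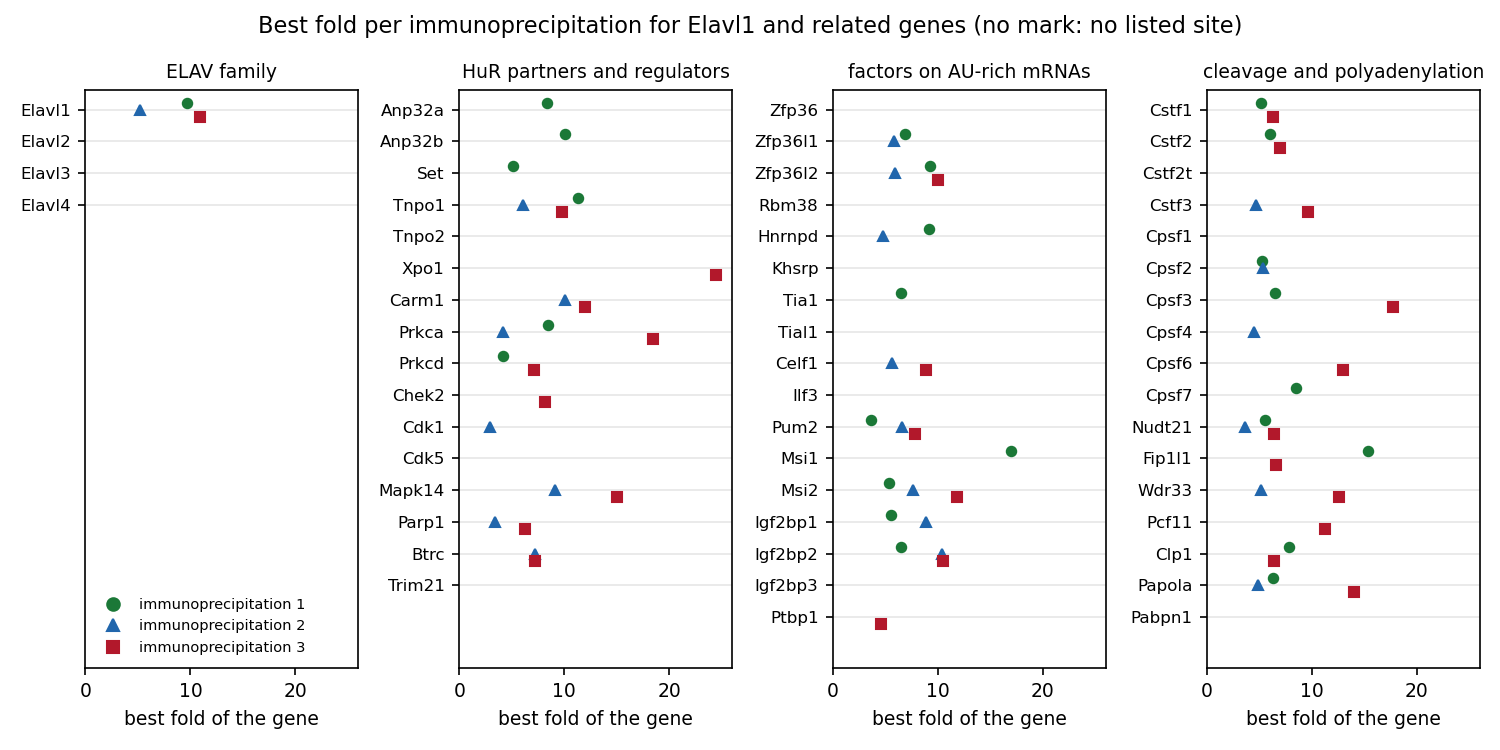
Best fold of each gene in each immunoprecipitation for the ELAV family and the members shown of 3 lists, HuR partners and regulators, other factors on AU-rich mRNAs, and cleavage and polyadenylation factors; the x axis is the caller's fold, each symbol is 1 immunoprecipitation and a missing symbol means no listed site. Elavl1 has a mark for all 3 immunoprecipitations, at 9.63, 5.16 and 10.87, and the other ELAV genes have none.

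Finally, the 1247 other genes with a site in every list were ranked by how closely their best fold followed that of Elavl1, as the distance between percentiles within each list. Among the 5 closest were Golgb1, a Golgi tethering protein gene, at 7.58 percentage points, Acsl4, a gene for activation of long fatty acids, at 8.63, Gabpa, an ETS transcription factor gene, at 10.3, and Madd, a Rab exchange factor gene, at 10.6. Golgb1 had best folds of 10.1, 5.09 and 11.61 and Acsl4 had 9.64, 5.15 and 10.13, next to the 9.63, 5.16 and 10.87 of Elavl1. Golgb1 and Gabpa also had overlap between lists 2 and 3 only, whereas Acsl4 had none. This is a likeness over 3 lists, and which genes are nearest changed when a list was left out: none of the 5 was among the nearest without immunoprecipitation 1 or without 2, and 2 were without 3.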

How the data were processed

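HuR was immunoprecipitated from CT26.WT cells and the RNA sequenced. Per the submitters' processing notes, FastQC, cutadapt 1.9.3, STAR and HISAT2 2.0.4 were used on build mm39, in an order not given. Site names carry the prefix of the MACS caller; which version, settings and control it had is not given in the sources used here. Per the file headers, the deposited values of a site are a fold enrichment (a ratio), a score of minus 10 times the log10 p-value, an FDR read here as percent, and a length. Starts are printed counted from 1.

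The members and gene lists were chosen with earlier results of these data known. From the deposited lists, percentiles (the share of sites or genes with a strictly lower value), overlaps of at least 1 base and gaps in site numbers were computed with Python 3.11.15 and pandas 2.3.3. The overlap code was tested on simulated data. No test across samples was possible from single site values. Named genes were, beside Elavl1 and its family, members of 3 lists with a site in all lists, up to 5 others per list by highest fold, and the 5 genes nearest in percentiles; 1 member of these lists and 1 of the nearest genes are counted but not reported here by name. Cell type markers, the neighbours of each site and genes sharing its fold are named as well, the last 2 kinds outside that rule and after their values were seen. All 4 ELAV symbols and the 16, 18 and 17 symbols of the lists were found in the RefSeq GRCm38 table, used for names, strand, gene length and neighbours. The planned test of HuR against IgG and the search for U-rich motifs were not run, since count tables and an mm39 genome were not used here. The authors' symbol list does not hold Elavl1 and was not used otherwise.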

Additional observations from a re-analysis of the deposited data

How the results depend on the processing

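No paired analysis was possible because what is listed at Elavl1 are called sites, with no IgG value to pair them with. Elavl1 kept its 3 sites, its place in 3 lists and 1 recurring place at a score of at least 70 and with each list cut to the length of the shortest. The score limit could not change this, since the sites scored 122.64, 119.16 and 178.52. List 1 was itself the shortest, so the cut left it whole. The place recurred also when 50% of both sites or the same start and end was asked for. Those stricter overlap rules could not change the result, since the bounds in immunoprecipitations 2 and 3 are identical. A fold at or above the list's median left 2 sites, since that of immunoprecipitation 2 fell below. Leaving out each immunoprecipitation in turn left 2 sites in 2 lists and 0 to 1 recurring places, because the recurrence needs immunoprecipitations 2 and 3. The percent of genes with a lower best fold became 66.8, 18.4 and 62.8 in lists 1, 2 and 3 at a score of at least 70, and 80.5, 26.7 and 80.5 of all sites, which follows from what is ranked. Of the 5 nearest genes, 5 were kept with log2 folds and 0 to 2 when an immunoprecipitation was left out. Choosing sites by the bounds of the gene was not run, as mm39 bounds were not used here. Read depth is unknown and calls near Elavl1 are left out of the lists, which limits any statement that a site is missing.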
